A study of Mus musculus with 2 samples.

Results

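Paneth cells sit at the base of the small intestinal crypt, beside the stem cells, and release antimicrobial proteins into the lumen from large secretory granules. The alpha-defensins are the best known of these proteins, but the granules also hold lysozyme, an angiogenin-type RNase, lectins and the protease that matures the defensins. In mouse organoids, Paneth cells arise from the crypt stem cells together with enterocytes and goblet cells.

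The genes described here are 10 genes of Paneth cells that are not defensins, chosen by name: Lyz1, Lyz2, Ang4, Mptx1, Mptx2, Mmp7, Itln1, Habp2, Clps and Nupr1. Of these, 9 were among the 19294 genes of the count table, and Mptx2 was not analysed here. All 9 reached 10 reads in one library or both. The table lists only genes with at least 1 read in both libraries.

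Poly(A) RNA was sequenced from jejunal crypt organoids of Lgr5-EGFP-IRES-creERT2 mice, a reporter allele that both cultures carried and that marks Lgr5-expressing stem cells. The control culture was grown in medium with EGF, Noggin and R-spondin. The other culture received dextran sulfate sodium (DSS), a polymer of sulfated glucose that damages epithelial cells, for 4 days, at a concentration that the sources used here do not give for the sequenced sample. The comparison asked how DSS changed the transcripts of the organoids. With 1 library per condition, no difference between these libraries has a replicate check, and no test was made. In separate RT-PCR after DSS, the paper reports Lgr5 and Lyz as significantly lower, and Vil1, Muc2 and Chga as similar.

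Read depth was 65493032 counts for control and 59746968 counts for DSS. Levels are given in CPM, which are counts divided by the library size and set to a common total, with the library size corrected by the TMM factors of edgeR, and differences as the log2 ratio of DSS over control. Intervals are 95% intervals of counting error only and do not contain the variation between cultures. The 17235 genes that reached 10 counts in either library are called the genes compared, and their median log2 ratio was -0.06. Scaling by total counts moved that median to -0.31, a shift that applies to every gene alike. The labels call the cells intestinal stem cells. In the control culture 10 enterocyte markers summed to 3256 CPM and 8 stem cell markers to 1751 CPM, so transcripts of both kinds were counted. These sums cover unlike numbers of genes and are not corrected for length, so they give no share of cells. With bulk RNA, fewer cells of a type and less RNA per cell cannot be told apart.

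Most of the non-defensin Paneth genes were lower in the DSS library, by a moderate amount. Lyz1, Itln1 and Mmp7 were at 43.9% to 49.0% of their control level, Ang4 at 54.3% and Nupr1 at 61.7%. Habp2 was the lowest, at 30.1%, and Clps and Mptx1 were higher in the DSS library. Of the 9 genes, 7 had a log2 ratio below 0, against 52% of all genes compared. The ratio was -1 or less for 4 of them, against 20.2% of all genes compared, and 1 or more for 1 of them, against 19.3%. The count at -1 or less depends on the scaling. With upper quartile factors it was 2, against 18.3% of all genes compared. It was 3 with the median of all genes set to 0, against 19.0%, and 5 with total counts, against 26.2%. None was past -2 or 2, lines that 6.54% and 7.87% of all genes compared passed. With total counts, the shares of all genes past the inner lines became 26.2% and 15.4%. The median log2 ratio of the 9 genes was -0.88. Summed, they took 45982 counts in the control library and 18406 in the DSS library, 642 and 337 CPM, for a log2 ratio of -0.93 (interval -0.96 to -0.91).

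**Figure D1:**
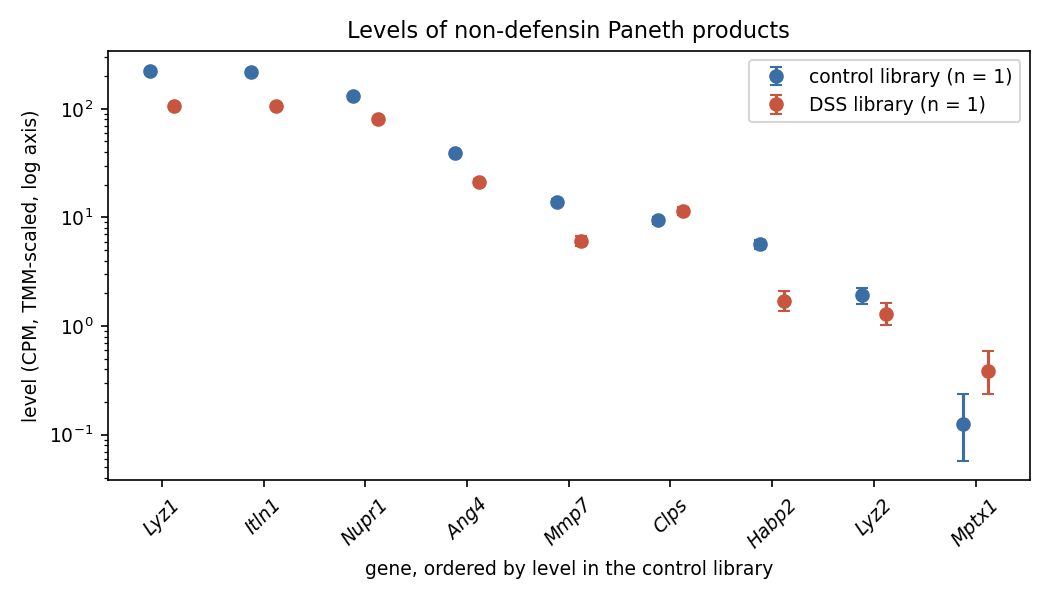
Level of each gene in CPM on a log axis, with the control library in blue and the DSS library in red (1 library each) and bars for the 95% counting interval. Lyz1 and Itln1 lie at the top in both libraries, at 218 CPM or more under control conditions and at 107 CPM after DSS, and Mptx1 lies under 1 CPM in both. CPM are not corrected for transcript length.

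The lysozymes cleave the peptidoglycan of bacterial walls. Lyz1 encodes the form of Paneth cells and Lyz2 the form of macrophages and other myeloid cells. In the genome build GRCm38.p6 of RefSeq the genes are neighbours on chromosome 10, Lyz2 from 117277541 to 117282272 and Lyz1 from 117287795 to 117292868, with 5522 bases between them, both on the minus strand. The 120 bases before each annotated start are shown because they are nearly the same in the pair, and capitals mark the 9 positions that differ.
Lyz1, chr10:117292869-117292988, minus strand: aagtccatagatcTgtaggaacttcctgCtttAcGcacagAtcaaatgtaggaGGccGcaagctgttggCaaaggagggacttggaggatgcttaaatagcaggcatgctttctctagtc
Lyz2, chr10:117282273-117282392, minus strand: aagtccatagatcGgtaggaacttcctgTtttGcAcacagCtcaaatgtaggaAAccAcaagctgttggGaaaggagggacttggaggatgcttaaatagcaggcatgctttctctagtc
Without gaps, 92.5% of these 120 positions were the same, and 98.3% of the last 60, but 60.8% over 250 bases. A comparison without gaps cannot tell an inserted or missing base from unlike sequence further upstream.

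Despite this likeness, the lysozymes were far apart in level, at 176 CPM per kilobase of transcript for Lyz1 and 1.45 for Lyz2 in the control library. Lyz1 had 15939 counts in the control library and 5825 in the DSS library, or 223 and 107 CPM. Its log2 ratio was -1.06 (interval -1.11 to -1.02), and 18.9% of all genes compared had a ratio as low or lower. Lyz2 had 137 and 71 counts, or 1.91 and 1.30 CPM. Its log2 ratio of -0.56 had a wide interval, from -0.99 to -0.14. Lyz2 therefore took 0.852% of the lysozyme counts in the control library (Clopper-Pearson 95% interval 0.716% to 1.01%) and 1.20% in the DSS library (0.942% to 1.52%). The ratio of Lyz2 lay 0.50 above that of Lyz1 on the log2 scale (interval 0.07 to 0.93), a difference that does not depend on the scaling of the libraries.

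Reads from the lysozymes can be hard to place. In the GENCODE transcript of Lyz2, 15.4% of all stretches of 50 bases also occur in Lyz1, and 1.97% of all stretches of 100 bases. How the authors' counting treated such reads was not given in the sources used here, so the value of Lyz2 is uncertain. The pair summed to a log2 ratio of -1.06, the same as Lyz1 alone. Only a minority of the macrophage markers could be compared, and these lay on the other side of 0. Of 18 macrophage and myeloid markers, 7 were listed and 6 reached 10 counts in either library. All 6 had a ratio above 0, while 52% of all genes compared were below 0. C1qa, with 3 and 32 counts, and Csf1r, with 9 and 21, reached 10 counts only in the DSS library. The ratios of C1qa and Csf1r could therefore only be above 0. The sum of the 7 went from 16.3 to 54.2 CPM. Most of this difference came from Mrc1, the mannose receptor, which went from 1.34 to 25.9 CPM. The seventh marker, Laptm5, had 7 and 2 counts, so it was lower in the DSS library and was left out by the filter. The pan-leukocyte gene Ptprc and the macrophage gene Adgre1 were not analysed here. The part of such cells in the Lyz2 counts was not tested.

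Itln1 encodes intelectin, a lectin that binds microbial sugars and is made by Paneth and goblet cells of the mouse. It was counted nearly as often as Lyz1, with 15620 counts in the control library and 5845 in the DSS library, or 218 and 107 CPM. The log2 ratio was -1.03 (interval -1.07 to -0.99). The ratio of Itln1 minus that of Lyz1 was 0.03 (interval -0.03 to 0.10), so Itln1 and Lyz1 kept nearly the same proportion to each other in both libraries. The goblet cell markers moved the opposite way. All 9 that were listed had a ratio above 0, with a median of 2.55, while 52% of all genes compared were below 0. Muc2, the main secreted mucin, went from 1848 to 44422 counts, whereas the paper's RT-PCR found it at a similar level after DSS. The part of goblet cells in the level of Itln1 was not tested.

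Ang4 encodes an angiogenin-type RNase that kills bacteria. It had 2823 counts in the control library and 1170 in the DSS library, or 39.4 and 21.4 CPM. Its log2 ratio was -0.88 (interval -0.98 to -0.78), which placed it slightly above Lyz1 by 0.18 (interval 0.07 to 0.29). Relatives of Ang4 had ratios closer to 0. Ang, the general angiogenin, had 787 and 447 counts and a log2 ratio of -0.43, while Rnase4 had 3201 and 2375 counts and a ratio of -0.04. The ratio of Rnase4 lay 0.84 above that of Ang4 (interval 0.71 to 0.97). Of 6 relatives compared, the RNase inhibitor Rnh1 included, 5 had a ratio below 0, against 52% of all genes compared. None was at -1 or less, against 20.2% of all genes compared, and the median was -0.28. The lysosomal RNases Rnaset2a and Rnaset2b, near-identical genes whose reads can be split, summed to 11568 and 5287 counts and a ratio of -0.74.

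Mmp7 encodes matrilysin, the protease that cuts the pro-forms of the alpha-defensins in mouse Paneth cells. It had 997 counts in the control library and 334 in the DSS library, or 13.9 and 6.11 CPM, and none of its stretches of 50 bases occurred in another gene. The log2 ratio was -1.19 (interval -1.37 to -1.01). Its difference from Lyz1 was -0.13 (interval -0.31 to 0.06), so the interval held 0. Most other matrix metalloproteinases and their inhibitors were on the other side of 0. Of 8 relatives compared, 5 reached a ratio of 1 or more, against 19.3% of all genes compared, and 1 lay at -1 or less, against 20.2%. Mmp23 went from 139 to 729 counts, a ratio of 2.78, and Mmp28 from 233 to 808, a ratio of 2.18. The gene at -1 or less was Timp3, an inhibitor bound to the matrix, with 959 and 178 counts and a ratio of -2.04 (interval -2.28 to -1.81).

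Habp2 encodes a hyaluronan-binding serine protease that circulates in plasma and acts on coagulation factors. It had the lowest ratio of the 9 genes, with 405 counts in the control library and 93 in the DSS library, or 5.66 and 1.70 CPM. The log2 ratio was -1.73 (interval -2.08 to -1.41), and 8.94% of all genes compared had a ratio as low or lower. Its difference from Lyz1 was -0.67 (interval -1.01 to -0.34). The related and functionally linked proteases, inhibitors and receptors mostly had ratios above 0, in 6 of 7 compared genes, with a median of 1.38. Of all genes compared, 52% were below 0. The ratio was 1 or more for 5 of the 7, against 19.3% of all genes compared. The tissue activator of plasminogen, Plat, went from 668 to 1889 counts, a ratio of 1.89. Coagulation factor X, F10, went from 18 to 456 counts, a ratio of 5.05 (interval 4.37 to 5.82). Hgfac, a related protease, had 4116 and 4044 counts and a ratio of 0.36. Habp2 overlaps Nrap in the RefSeq annotation, and Nrap had 38 and 77 counts. Short or non-coding genes also overlap Habp2, Mmp7, Clps and Nupr1 there and were not analysed here.

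Clps encodes colipase, the small cofactor that anchors pancreatic lipase to fat droplets. It was the best-counted gene of the set that was not lower in the DSS library, with 673 counts in the control library and 625 in the DSS library, or 9.40 and 11.4 CPM. The log2 ratio was 0.28 (interval 0.12 to 0.44). With total counts only, the ratio was 0.03, close to 0, so that Clps was higher in the DSS library by a margin that depends on the scaling. Relative to Lyz1, Clps was higher in the DSS library by 1.35 (interval 1.18 to 1.51). There were 0.0422 Clps counts per Lyz1 count in the control library and 0.107 in the DSS library. The lipase Pnliprp2, which works with colipase, differed much more, with 4146 and 59824 counts and a ratio of 4.24. Pnliprp1 had 168 and 190 counts and a ratio of 0.57, and its difference from Clps was 0.28 (interval -0.06 to 0.63). Of 12 markers of pancreatic acinar cells, 2 were listed, Cela1 at 5.87 and 6.29 CPM and Ctrb1 at 0.978 and 2.58 CPM. The digestive protease genes Cpa1 and Prss2 were not analysed here, and the part of such cells in Clps was not tested.

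Mptx1 encodes a mucosal pentraxin, one of a family of ring-shaped proteins that bind bacterial surfaces. It rested on 9 counts in the control library and 21 in the DSS library, or 0.126 and 0.384 CPM. The log2 ratio was 1.61, with a wide interval (0.42 to 2.92), and Mptx1 is the only gene of the set under 10 counts in a library. It passed the filter only through the DSS library, so its ratio could only be above 0. Its stretches of 50 bases were shared with Mptx2 in 17.9% of cases, so single reads of the pair can be misplaced. The other pentraxins were also low. Crp had 16 and 35 counts, Nptx1 had 53 and 46, and Nptx2 had 96 and 222, with ratios of 1.52, 0.18 and 1.60.

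Nupr1 differs from the others in that its product is not secreted. It is a small nuclear protein induced by stress, and a known target of ATF4, the transcription factor of the integrated stress response. It had 9379 counts in the control library and 4422 in the DSS library, or 131 and 80.9 CPM, for a log2 ratio of -0.70 (interval -0.75 to -0.64). The 150 bases before its start carry a match to TGATGNAA, the core of the element that ATF4 binds with C/EBP proteins, on the opposite strand from 110 to 103 bases before the start, shown in capitals.
Nupr1, chr7:126625471-126625620, minus strand: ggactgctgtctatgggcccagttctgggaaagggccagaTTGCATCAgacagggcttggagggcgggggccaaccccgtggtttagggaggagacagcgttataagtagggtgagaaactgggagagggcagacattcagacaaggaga
Of all 32851 RefSeq promoters, 3.45% hold this motif on either strand in the 250 bases before the start, and of the 9 genes of the set with a promoter in the table (all but Clps), Nupr1 alone does. The match is a description of the letters and says nothing of binding.

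The other genes of the integrated stress response went both ways, as did all genes compared. Of 20 compared, 8 had a ratio above 0 and 12 below, with a median of -0.15, and the ratio was at least 1 for 4 of them and -1 or below for 6, beside 19.3% and 20.2% of all genes compared. With so few genes these counts do not set the list apart. Atf4 itself went from 24420 to 27181 counts, a ratio of 0.54. The genes with the largest ratios above 0 were Atf3, a stress-induced transcription factor, at 2.68 and Slc7a11, the cystine transporter, at 2.10, while Ddit3, which promotes cell death under stress, was at 1.44. Phgdh, the first enzyme of serine synthesis, was at the other end, with 11938 and 716 counts and a ratio of -3.67. Psat1, in the same pathway, was at -1.91, and Nupr1 lay between these groups.

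**Figure D2:**
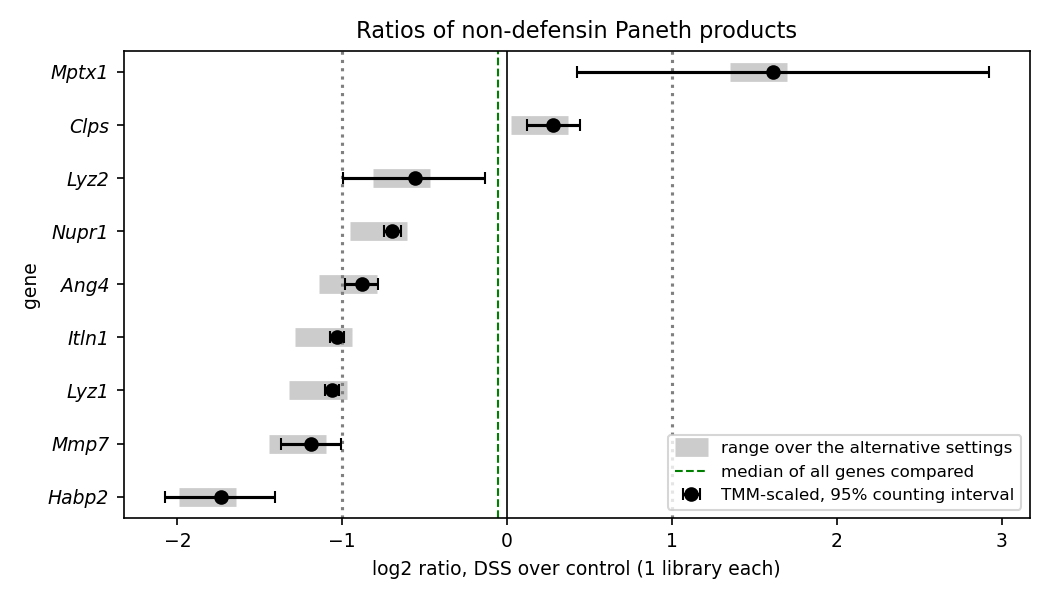
Log2 ratio of DSS over control for each gene (points, 1 library each) with the 95% counting interval (black bars), the range over the alternative scalings and filters (grey bars), the median of all genes compared (green dashes) and the lines at -1 and 1 (dots). Habp2 is lowest at -1.73, Mmp7, Lyz1 and Itln1 lie close together near -1, and Clps and Mptx1 are the genes above 0.

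In the order of the ratios, several neighbours could not be separated by counting error. From low to high the order was Habp2, Mmp7, Lyz1, Itln1, Ang4, Nupr1, Lyz2, Clps and Mptx1. The interval of the difference held 0 between Mmp7 and Lyz1, between Lyz1 and Itln1, and between Nupr1 and Lyz2 (0.14, interval -0.30 to 0.56). It did not hold 0 for the other 5 neighbouring pairs. The nearest of these were Ang4 and Itln1, which differed by 0.15 (interval 0.04 to 0.26), and Nupr1 and Ang4, which differed by 0.19 (interval 0.07 to 0.30).

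Levels of different genes were compared per length, as CPM per kilobase of the GENCODE transcript that matches the gene's RefSeq entry. In the control library the most abundant was Itln1 at 191 CPM per kilobase, followed by Lyz1 at 176, Nupr1 at 158 and Ang4 at 55.6. Clps at 15.4 and Mmp7 at 13.0 followed, then Habp2 at 2.01, Lyz2 at 1.45 and Mptx1 at 0.157. In the DSS library Nupr1 at 97.6 CPM per kilobase and Itln1 at 93.7 had overlapping counting intervals at the top, with Lyz1 at 84.4 below them. Clps, at 18.7 CPM per kilobase, was further above Mmp7, at 5.72, than in the control library. Habp2, at 0.604, was below Lyz2, at 0.987. The intervals of Habp2 and Mptx1, at 0.481, overlapped there.

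The most abundant genes of the set took similar shares of its counts in both libraries. Lyz1 took 34.7% of the summed counts in the control library and 31.6% in the DSS library. Itln1 took 34.0% and 31.8%, and Ang4 took 6.14% and 6.36%. The share of Nupr1 went from 20.4% to 24.0%, and that of Clps from 1.46% to 3.40% (interval 3.14% to 3.67%).

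The alpha-defensins, the other large group of Paneth products, differed from these genes in the size of the difference. All 20 defensin genes listed had a ratio of -2 or less, against 6.54% of all genes compared, while none of the 9 non-defensin genes did. Defa29, AY761184 and Defa-ps16 passed the filter only through the control library. The interval of Defa-ps16, with 13 and 1 counts, ran from -8.72 to -0.58. Defensin genes are near-identical and share reads, so their single ratios are uncertain and the 20 are not separate observations. The differences given here rest on their sum. The sum went from 75875 to 7322 counts, a log2 ratio of -2.98 (interval -3.02 to -2.95). There were 4.76 defensin counts per Lyz1 count in the control library and 1.26 in the DSS library. The ratio of the defensin sum minus that of Lyz1 was -1.92 (interval -1.98 to -1.87). For Mmp7, whose product matures the defensins, the same difference was -1.80 (interval -1.98 to -1.61), and for Habp2, the nearest gene, it was -1.25 (interval -1.58 to -0.91). These differences do not depend on the scaling, but reads of defensin genes that the authors' counting may have dropped would affect them. That part was not tested.

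**Figure D3:**
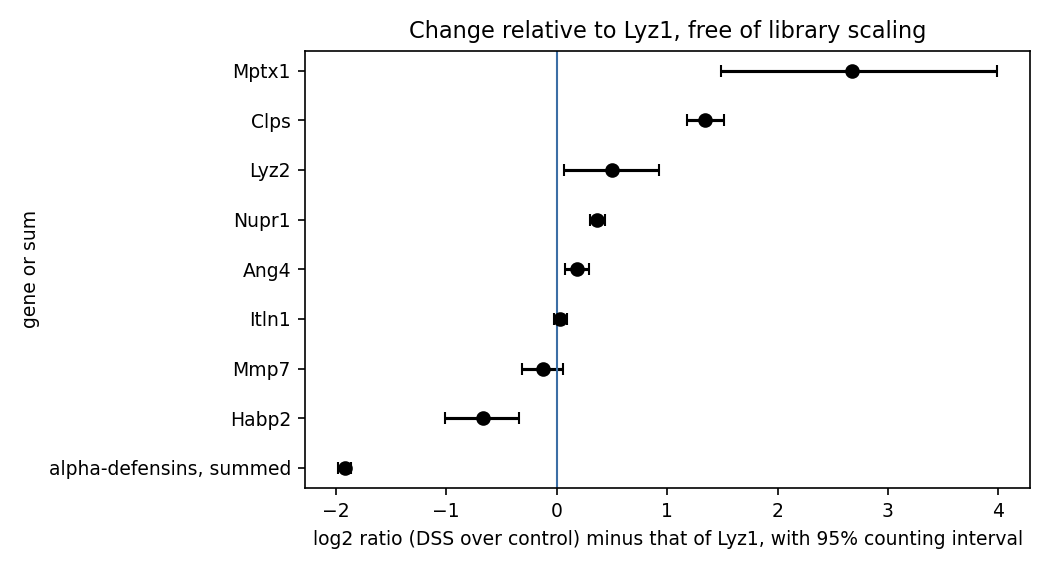
Log2 ratio of each gene, and of the summed alpha-defensins, minus the log2 ratio of Lyz1, with 95% counting intervals (1 library per condition). The intervals of Itln1 and Mmp7 hold 0, Clps is at 1.35, and the defensin sum is at -1.92, below every gene of the set.

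Other products linked to Paneth cells, most of them secreted, went both ways. Of 15 compared, 6 had a ratio of 1 or more, against 19.3% of all genes compared, and 4 a ratio of -1 or less, against 20.2%, with a median of 0.61. The 6 include Tff3 at 2.55 and Agr2 at 2.17, which are also goblet cell markers in the list described above. The largest ratio was that of the chemokine Ccl6, at 6.27, which rested on 4 counts in the control library. Reg3a, a bactericidal lectin, went from 491 to 5389 counts, a ratio of 3.84, while its relative Reg3b went from 3729 to 1073, a ratio of -1.41. Dmbt1, a mucosal scavenger receptor that binds bacteria, went from 10351 to 1002 counts, a ratio of -2.98.

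The regulators and receptors of Paneth cells also lay on both sides of 0. Of 22 compared, 10 had a ratio above 0 and 12 below, with a median of -0.12, and the ratio was at least 1 for 6 of them and -1 or below for 5. These counts are close to the 19.3% and 20.2% of all genes compared that passed the same lines, so the spread is not particular to this list. The potassium channel gene Kcnn4, which is active in Paneth cells, was the lowest, with 507 and 44 counts and a ratio of -3.14. Sox9, a transcription factor that Paneth cells need to form, had 2700 and 567 counts and a ratio of -1.86. Bhlha15 (MIST1), a factor of secretory granule maturation, had 850 and 149 counts and a ratio of -2.12. In the same list Fgfr3, Tcf7l2 and Fzd5 had ratios above 0, at 1.41, 1.28 and 1.13. Atoh1 and Spdef, factors of the wider secretory lineage, were higher in the DSS library. Atoh1 went from 89 to 647 counts, a ratio of 3.25, and Spdef, which favors goblet and Paneth maturation and is also in the goblet list, from 245 to 1007, a ratio of 2.43. For Xbp1, a factor of secretory capacity, the ratio was -0.02, and its interval held 0 (-0.06 to 0.01).

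**Figure D4:**
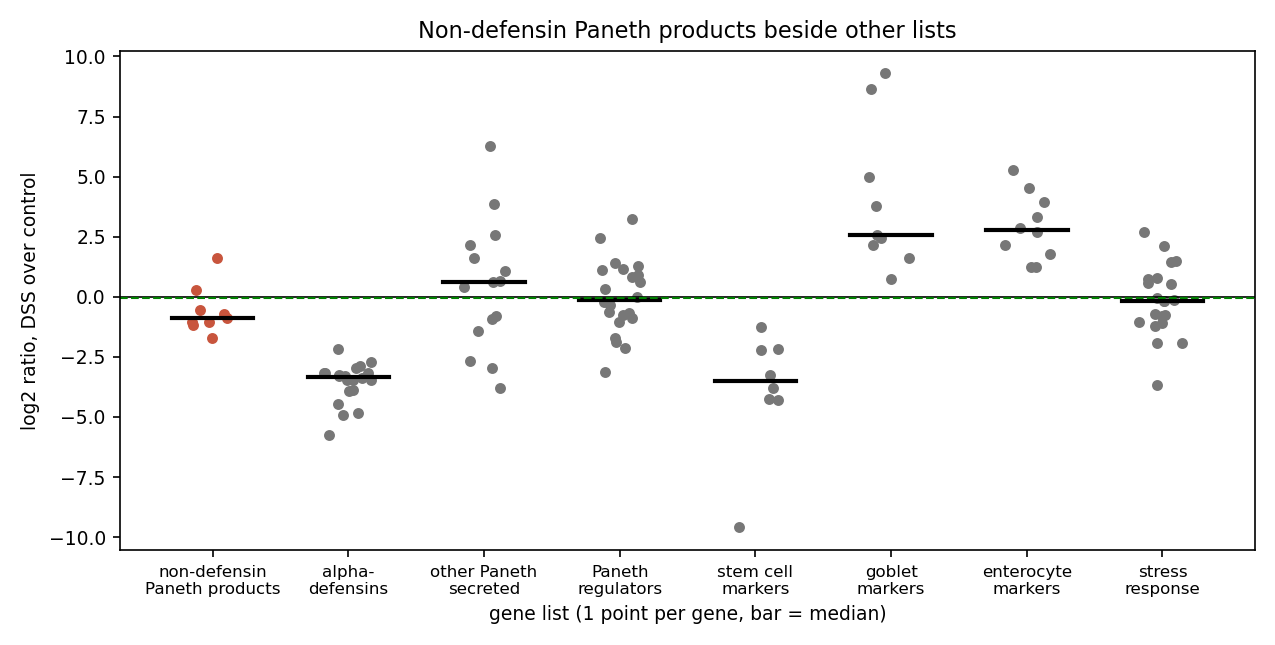
Log2 ratio of DSS over control for each compared gene of 8 lists (points) with the list's median (bars). The non-defensin Paneth products (red) have a median of -0.88, the alpha-defensins of -3.35, stem cell markers of -3.51, goblet markers of 2.55 and enterocyte markers of 2.79, and the stress response list contains Nupr1.

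Stem cell markers gave ratios further below 0 than the non-defensin Paneth genes in the same libraries, though no test compares the lists. All 8 had a ratio of -1 or less, against 20.2% of all genes compared, with a median of -3.51. The sum of the stem cell markers went from 1751 to 244 CPM. All 10 enterocyte markers were at 1 or more, against 19.3% of all genes compared, with a median of 2.79. Of 8 general epithelial markers, 3 were at 1 or more, against 19.3% of all genes compared, and none at -1 or less, with a median of 0.44. Those 3 were Krt20, a keratin of differentiated epithelium, at 3.99, Vil1, which is also an enterocyte marker, at 1.25, and the keratin gene Krt19 at 1.15. Vil1 went from 36438 to 66364 counts, whereas the paper's RT-PCR found it at a similar level after DSS.

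The promoters of Mmp7 and Ang4 are shown because both hold the letters TGAGTCA, the element bound by AP-1 factors, which was searched on both strands after the sequences had been read. It lies 63 to 57 bases before the first annotated start of Mmp7 and, on the opposite strand, 122 to 116 bases before the start of Ang4. Capitals mark the match.
Mmp7, chr9:7691940-7692089, plus strand: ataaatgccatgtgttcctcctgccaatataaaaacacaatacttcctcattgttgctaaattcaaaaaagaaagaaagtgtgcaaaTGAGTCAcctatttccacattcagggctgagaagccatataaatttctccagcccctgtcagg
Ang4, chr14:51773591-51773740, minus strand: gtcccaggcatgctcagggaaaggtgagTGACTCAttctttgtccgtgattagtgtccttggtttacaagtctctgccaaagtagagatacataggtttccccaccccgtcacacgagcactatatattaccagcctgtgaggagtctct
Of all RefSeq promoters, 4.46% hold TGAGTCA in the 250 bases before the start. Of the other motifs searched, the TCF/LEF letters CTTTGAT occurred in Mmp7 and CTTTGAA in Mptx1, and TATAAA in Mmp7 and Mptx1, against 3.21%, 4.46% and 12.4% of all promoters. No relation between these letters and the ratios was tested.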

How the data were processed

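Poly(A) libraries of 1 control and 1 DSS-treated organoid culture were compared. Values deposited by the authors are raw read counts for each gene. The files of the single samples are named for FPKM but hold these counts for all 19294 genes. The submitters' processing notes name HISAT2 and StringTie. The build, annotation and counting options are not given in the sources used here.

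Counts were scaled with TMM factors (1.09 for control, 0.915 for DSS) in edgeR 4.0.16 under R 4.3.3. Intervals are exact Clopper-Pearson (ratios and shares), Poisson (levels) or conditional odds-ratio (differences between ratios) 95% intervals from scipy 1.17.1. They cover counting error only. The filter was 10 counts in at least one library. No test between conditions is possible with 1 library each, so p-values are absent. The ratio and its interval were tested on simulated counts that hold counting noise only, with few genes changed, evenly up and down. Far more genes differ in these data, so the simulation cannot check the scaling here. It cannot check variation between cultures either.

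Members and lists were chosen with earlier results of these data known. All members, in each list the 3 genes furthest from 0 that reached 50 counts in one library, and relatives of members could be named. Not every such gene is printed. Sox9, Bhlha15, Xbp1, Atf4, Ddit3, Psat1, Reg3b, Tff3, Agr2, Csf1r, C1qa and Laptm5 were chosen after their values were seen. So were Copz2, Fgfr3, Tcf7l2, Fzd5, AY761184 and Defa-ps16. Transcript lengths and shared stretches come from GENCODE vM21, and promoters and positions from RefSeq (GRCm38.p6). The planned Mptx1 share of the Mptx pair and protein comparisons were not run. Other scalings tried were total counts, size factors of DESeq2 1.42.0, upper quartile factors and a centering that sets the median gene to 0, and other choices were a prior count of 2, thinning of the control library, other count filters and the removal of single members.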

Additional observations from a re-analysis of the deposited data

How the results depend on the processing

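No result changed direction under the alternatives run. Over the 4 summary values, 29 of 37 values under an alternative stayed within a set range. For the sum this was its counting interval, and for the counts of genes 1.5 times the count. For the median it ran between the medians of the single genes' lower and upper limits, which is not a counting interval of the median. Leaving out the filter could not change these values, since all 9 genes passed it. With total counts only, the median log2 ratio of the 9 genes was -1.14 and their summed ratio -1.19. That scaling put 5 genes at -1 or less, beside 26.2% of all genes compared. With upper quartile factors, the summed ratio was -0.84 and 2 genes were at -1 or less, beside 18.3% of all genes compared. The 2 genes were Mmp7 and Habp2, since Lyz1 at -0.97 and Itln1 at -0.94 lie close to that line. Centered on the median of all genes, the summed ratio was -0.87. It was also -0.87 without Lyz1. With at least 10 counts in both libraries, 0 genes were at 1 or more, since Mptx1 is then left out. The median over Lyz1, Ang4, Mmp7 and Itln1 only, an alternative chosen after seeing the data, was -1.05. Of 71 values of single genes, 12 left their counting interval, all under these 3 scalings. Mptx1 and Lyz2 are limited by depth. No paired analysis was possible because each condition has 1 library.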
